A study of Caenorhabditis elegans with 15 samples.

Results

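The genes described here, 10 in number, stood higher in each of 4 mutant strains of Caenorhabditis elegans than in the wild type: K10D11.5, otub-2, mgrn-1, helq-1, ddx-19, zipt-2.3, F11C1.1, cdc-42, attf-4 and wdr-4. The genes were chosen by name, and the choice rested on these same arrays, on the difference of each mutant from wild type. They are 10 of 17118 genes with a probe set and carry 11 of 20766 probe sets that name 1 gene. All 10 passed the filter on dim genes, a log2 value of at least 5 in at least 2 samples, as did 8653 genes in all. Because the rise over wild type selected them, it is described below, and nothing is read from their passing that comparison. Tests are kept for other genes and for differences between mutants, which the choice did not compare directly.

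The arrays measured total RNA of larvae at the L1 to L2 stage, hatched overnight without food and then fed bacteria for 6 to 7 h. N2 (Bristol) served as wild type and was grown as 3 populations. The alg-1 mutant, strain VC446, carries gk214 on X (3 populations), and the zfp-1 mutant, strain RB774, carries ok554 on III (2 populations). The rde-4 mutant, strain BB11, carries ne299 on III (3 populations). The lin-35 mutant, strain MT3033, carries n745 in lin-35 and also e1091 in unc-13, both on I (2 populations). Replicate 2 of the zfp-1 and of the lin-35 mutant was hybridised to 2 arrays, which were averaged, so 15 arrays gave 13 biological samples. Each mutant is represented by 1 strain and 1 allele, so other differences between its background and N2, and in MT3033 the unc-13 mutation, cannot be told apart from the named gene.

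In worms, many Argonaute proteins loaded with small RNAs lower the transcripts that those RNAs match. alg-1 encodes an Argonaute of the microRNA pathway, and RDE-4 binds double-stranded RNA and works with Dicer in making siRNAs. zfp-1 encodes a PHD zinc finger protein linked to RNAi, and lin-35 encodes the retinoblastoma protein of the worm, a repressor of transcription. The 10 genes are not known as 1 pathway. By their known or presumed products they fall into ubiquitin enzymes (otub-2, mgrn-1), helicases (helq-1, ddx-19), a tRNA methylation factor (wdr-4), an AT-hook DNA-binding protein (attf-4), a zinc transporter (zipt-2.3), a small GTPase (cdc-42) and 2 genes with no name beyond their sequence (K10D11.5, F11C1.1).

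Between 8140 and 8400 genes per array reached a value of 5. Precision is set by the small number of arrays. Wild-type replicates 1 and 2 scored 46.1 and 49.3 on principal component 2, apart from wild-type replicate 3 at 13.6 and the mutants at -30.9 to 21.9. alg-1 replicates 1 and 3 differed by an SD of 0.27 over genes, close to the 0.22 and 0.36 between arrays of a single sample. The 3′ to 5′ difference of the actin control was 1.25 to 2.22 in wild type, 1.94 to 2.96 in rde-4 and 0.81 to 1.79 in the other mutants, and its part in the results was not tested. Of the markers of adults and embryos, 9 of 10 were below 5 in all samples, as were 5 of 5 sperm markers. The mean log2 value of 8 intestine markers was 10.7 to 10.8 in wild type, 9.86 to 10.3 in rde-4 and 10.4 to 10.8 in the other mutants. Of these, 1 was called lower in alg-1, 1 in zfp-1, 2 in rde-4 and 0 in lin-35, and 0 higher (limma, adjusted p under 0.05). Over all genes, 2.06%, 2.92%, 4.73% and 1.47% were called lower. ges-1, a gut esterase gene among them, fell in alg-1, zfp-1 and rde-4 (limma adjusted p = 0.022, 0.017 and 0.0012). The other way, act-5 had differences of 0.83, 0.82, 0.30 and 0.88 in alg-1, zfp-1, rde-4 and lin-35 (lowest limma adjusted p = 0.19). The part of the intestine markers in the results was not tested. All markers of intestine (8), body wall muscle (6), pharynx (5) and neurons (7) were at 5 or more in every sample, as were 3 of 6 epidermis markers. In a sample of whole animals, a change in cell number and a change in RNA per cell cannot be told apart.

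**Figure D1:**
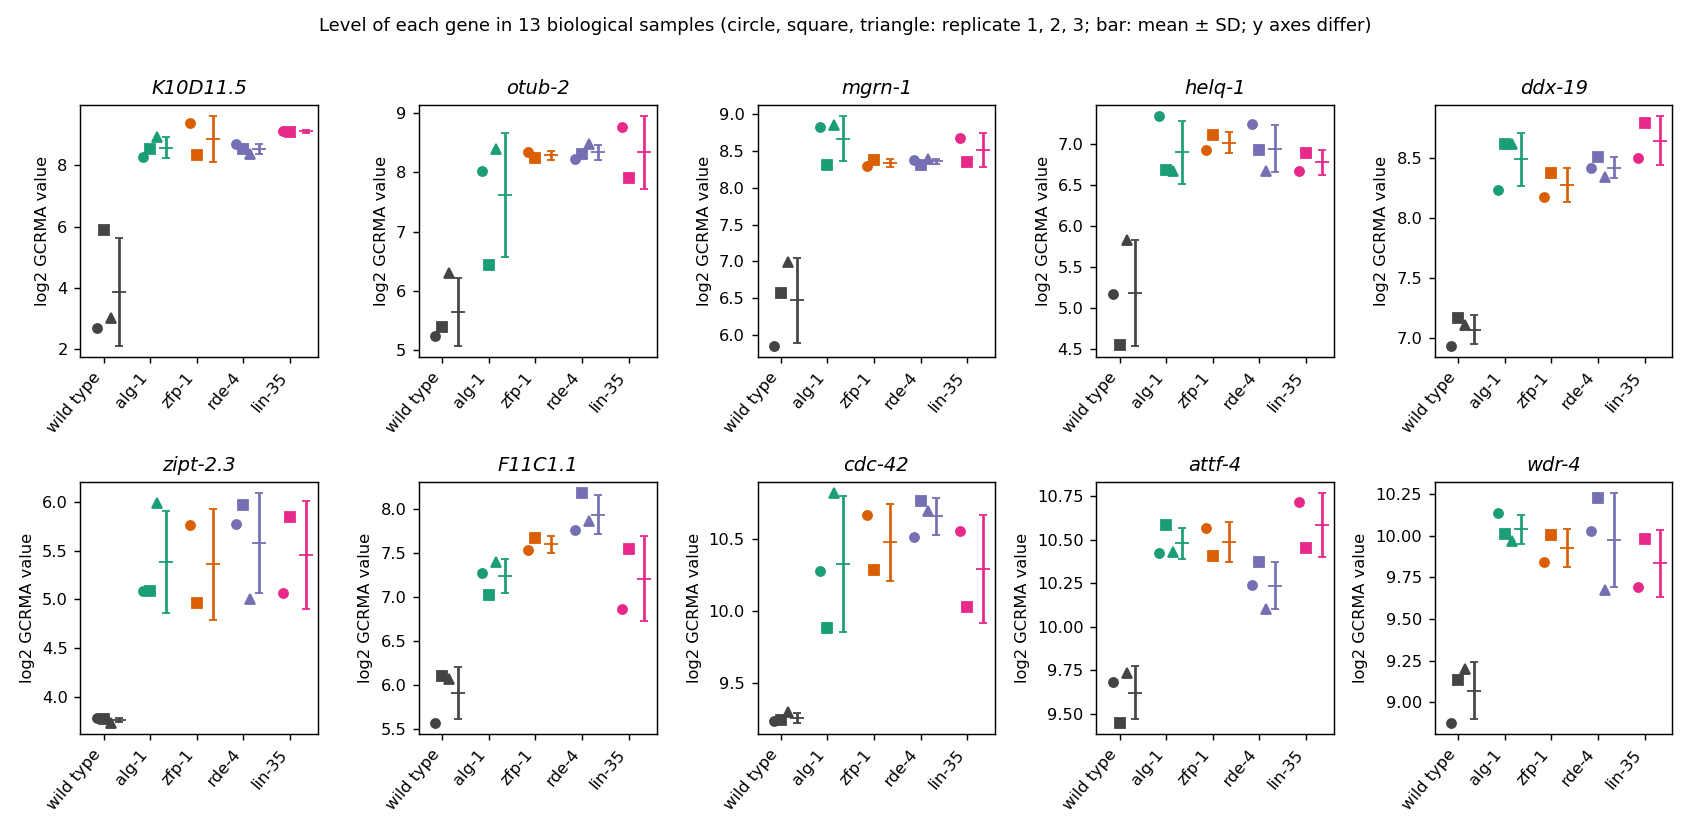
The log2 value of each gene (y axis, 1 panel per gene with its own scale) is plotted in the 5 groups (x axis). Points are biological samples and bars are mean ± SD. In each panel the 3 wild-type points lie below all 10 mutant points.

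Every one of the 10 genes was lower in each wild-type population than in any mutant sample. Of all genes tested, 2.02% showed this separation. The choice of the 10 genes favours both the separation and the size of their differences, so neither is read as a result. The median difference from wild type over the 10 genes was 1.52 in alg-1, 1.65 in zfp-1, 1.79 in rde-4 and 1.58 in lin-35 on the log2 scale, beside medians over all genes of 0.02, -0.01, 0.04 and 0.01. In the fit over all genes (limma, adjusted p under 0.05), 1.07% of genes were called higher in alg-1, 1.27% in zfp-1, 6.38% in rde-4 and 5.19% in lin-35, and 2.06%, 2.92%, 4.73% and 1.47% were called lower. Called higher in all 4 were 0.139%, or 12 genes. The 10 genes were taken from these 12, so their count here is fixed by the choice. The other 2 were mdf-2, a spindle checkpoint gene, with differences of 1.61 to 2.73, and W03F9.1, with differences of 0.72 to 1.27. Genes called lower in all 4 mutants numbered 13. Over all genes the number called higher in all 4 was 7, 6 and 104 without wild-type replicate 1, 2 or 3, and 3 with alg-1 replicates 1 and 3 taken as 1 sample. The 4 comparisons share the same 3 wild-type populations, so a low wild-type value enters all of them at once.

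K10D11.5 lies on chromosome IV. Its log2 values were 2.69, 5.89 and 3.03 in wild-type replicates 1, 2 and 3. They were 8.26, 8.52 and 8.94 in alg-1, 9.38 and 8.32 in zfp-1, 8.71, 8.52 and 8.38 in rde-4, and 9.13 and 9.08 in lin-35. The 10 mutant samples thus lay between 8.26 and 9.38, while the wild-type populations spanned 3.20, with replicate 2 well above the rest. Of the 3 wild-type samples, 2 were below 5, where values have little order. The mutant means exceeded the wild-type mean of 3.87 ± 1.76 (SD, n = 3) by 4.70 ± 0.65 (SE) in alg-1, 4.98 ± 0.73 in zfp-1, 4.67 ± 0.65 in rde-4 and 5.23 ± 0.73 in lin-35. These sizes rest in part on wild-type values below 5. Measured against wild-type replicate 2 alone, the one wild-type sample above 5, the mutant means exceeded it by 2.68, 2.96, 2.64 and 3.21.

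F11C1.1, on chromosome X, was the other gene without a functional name. It measured 5.57, 6.11 and 6.06 in wild type, and 7.28, 7.03 and 7.40 in alg-1. In zfp-1 it measured 7.54 and 7.67, in rde-4 7.77, 8.18 and 7.86, and in lin-35 6.87 and 7.55. The lowest mutant sample, lin-35 replicate 1, was 0.76 above the highest wild-type sample. Against wild type the difference was 2.02 ± 0.23 (SE) in rde-4 and 1.69 ± 0.25 in zfp-1, and it was 1.32 ± 0.23 in alg-1 and 1.30 ± 0.25 in lin-35.

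otub-2, on chromosome I, belongs by name to the otubains, cysteine proteases that remove ubiquitin from proteins. Its values on the array were 5.25, 5.39 and 6.30 in wild type, 8.02, 6.44 and 8.40 in alg-1, 8.34 and 8.24 in zfp-1, 8.22, 8.31 and 8.48 in rde-4, and 8.77 and 7.90 in lin-35. All mutant samples but 1 stood at 7.90 or more, whereas alg-1 replicate 2 was only 0.14 above wild-type replicate 3. The means exceeded the wild-type mean by 1.97 ± 0.45 (SE) in alg-1, 2.65 ± 0.51 in zfp-1, 2.69 ± 0.45 in rde-4 and 2.69 ± 0.51 in lin-35, or 3.93-fold to 6.47-fold. Measured against wild-type replicate 3 alone, the differences were 1.32 in alg-1 and 1.99 to 2.04 in the other mutants.

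mgrn-1, on chromosome X, encodes the worm counterpart of Mahogunin, a RING finger ubiquitin ligase of mammals. It measured 5.86, 6.57 and 6.99 in wild type. It stood at 8.82, 8.31 and 8.85 in alg-1, 8.29 and 8.37 in zfp-1, 8.37, 8.31 and 8.38 in rde-4, and 8.67 and 8.34 in lin-35. The mutant samples were tightly grouped, with a pooled SD of 0.20, against 0.57 between the wild-type populations, and the gap between the groups was 1.30. The mean differences ran from 1.86 ± 0.30 (SE) in zfp-1 to 2.19 ± 0.26 in alg-1, or 3.62-fold to 4.55-fold.

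helq-1, on chromosome III, encodes a DNA helicase that takes part in repair of meiotic double-strand breaks by recombination. Its values were 5.18, 4.55 and 5.83 in wild type, 7.33, 6.68 and 6.67 in alg-1, 6.92 and 7.1 in zfp-1, 7.24, 6.92 and 6.67 in rde-4, and 6.66 and 6.88 in lin-35. The wild-type SD of 0.64 was above the pooled mutant SD of 0.29, and 1 wild-type sample was below 5. The differences from wild type were 1.59 ± 0.34 (SE) in lin-35 to 1.83 ± 0.34 in zfp-1, and against wild-type replicate 3 alone 0.95 to 1.18.

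ddx-19, on chromosome II, encodes a DEAD-box ATPase whose yeast counterpart releases export factors from mRNA at the nuclear pore. It was at 6.94, 7.17 and 7.1 in wild type, 8.24, 8.61 and 8.61 in alg-1, 8.17 and 8.38 in zfp-1, 8.41, 8.51 and 8.34 in rde-4, and 8.50 and 8.79 in lin-35. Here the wild-type populations were close together, with an SD of 0.12, and the gap to the lowest mutant sample was 1.01. The rise was 1.21 ± 0.19 (SE) in zfp-1, 1.35 ± 0.17 in rde-4, 1.42 ± 0.17 in alg-1 and 1.58 ± 0.19 in lin-35, and it depended little on which wild-type population was used (1.11 to 1.71).

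zipt-2.3, on chromosome II, encodes a transporter of the ZIP family, which moves zinc into the cytoplasm. Its values were 3.78, 3.77 and 3.73 in wild type, all below 5. In the mutants it was at 5.08, 5.09 and 5.99 (alg-1), 5.76 and 4.96 (zfp-1), 5.77, 5.97 and 5.00 (rde-4), and 5.06 and 5.84 (lin-35). The mutant samples had a pooled SD of 0.53, and those of zfp-1 replicate 2 and rde-4 replicate 3 were themselves just under 5. Since wild type lay wholly below 5, the mutant means were at least 1.31-fold higher in alg-1, 1.28-fold in zfp-1, 1.49-fold in rde-4 and 1.37-fold in lin-35. The wild-type SD of 0.02 is that of values below 5 and says little of how the populations varied.

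cdc-42, on chromosome II, encodes the small GTPase that, in its GTP-bound form, recruits the PAR-6 polarity complex to the cell cortex. It had 2 probe sets. On the one used for the gene, wild type stood at 9.24, 9.24 and 9.30, alg-1 at 10.28, 9.88 and 10.82, zfp-1 at 10.67 and 10.29, rde-4 at 10.51, 10.76 and 10.70, and lin-35 at 10.55 and 10.02. The wild-type populations lay within 0.06 of each other, and the mutant samples lay between 9.88 and 10.82. The mutant means were higher by 1.03 ± 0.27 (SE) in lin-35 to 1.4 ± 0.24 in rde-4, or 2.04-fold to 2.64-fold. The other probe set read 8.91, 8.54 and 9.08 in wild type, 10.19, 9.71 and 10.04 in alg-1, 9.95 and 10.25 in zfp-1, 9.89, 9.86 and 9.76 in rde-4, and 10.24 and 9.20 in lin-35. It placed the mutants higher by 1.14, 1.26, 0.99 and 0.87 in alg-1, zfp-1, rde-4 and lin-35. Both probe sets therefore gave the same direction in each mutant, but on the other one lin-35 replicate 2 was only 0.12 above wild-type replicate 3, and rde-4 had a smaller difference than alg-1 and zfp-1 in place of the largest.

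**Figure D2:**
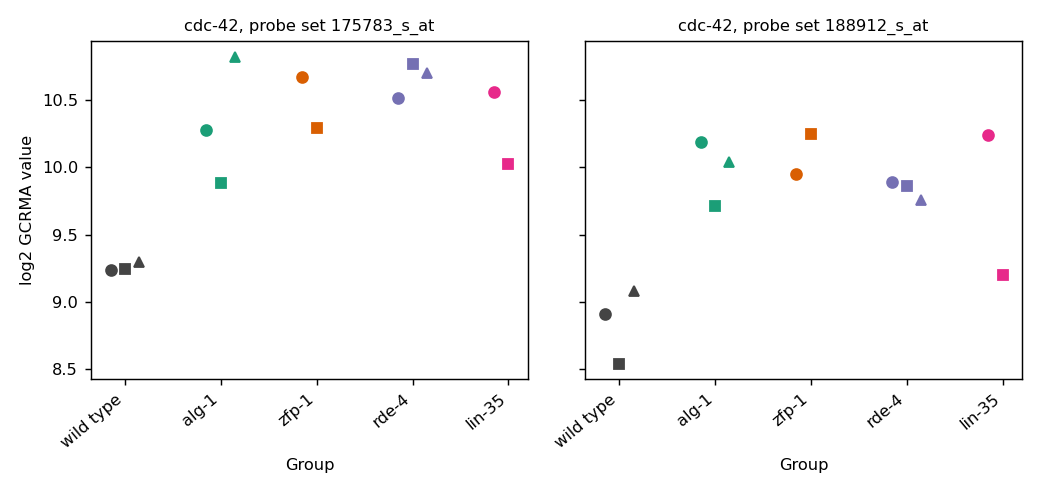
The log2 values of the probe set used for cdc-42 (left) and of its other probe set (right) (y axis) are plotted by group (x axis), with a point per biological sample (circle, square and triangle for replicates 1, 2 and 3). The gap between the lowest mutant sample and the highest wild-type sample is 0.58 on the left and 0.12 on the right.

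attf-4, on chromosome III, encodes a protein with AT-hook motifs, which bind the minor groove of AT-rich DNA. It measured 9.68, 9.45 and 9.73 in wild type, 10.42, 10.58 and 10.43 in alg-1, 10.57 and 10.41 in zfp-1, 10.24, 10.37 and 10.10 in rde-4, and 10.72 and 10.45 in lin-35. The differences were the smallest of the list in rde-4, at 0.62 ± 0.16 (SE), and reached 0.96 ± 0.18 in lin-35, or 1.53-fold to 1.95-fold. wdr-4, also on chromosome III, is the counterpart of a WD-repeat protein that in yeast and human cells holds the methyltransferase of a tRNA guanosine. It measured 8.88, 9.13 and 9.20 in wild type, 10.14, 10.01 and 9.96 in alg-1, 9.84 and 10.004 in zfp-1, 10.03, 10.22 and 9.67 in rde-4, and 9.69 and 9.98 in lin-35. Its differences ran from 0.76 ± 0.21 (SE) in lin-35 to 0.97 ± 0.18 in alg-1. For both genes the groups did not overlap, with gaps of 0.37 and 0.47 between the nearest wild-type and mutant samples. As a measure of technical spread only, the arrays of a single sample differed by 0.02 to 0.56 over the 10 genes, with a median of 0.20.

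The 3 wild-type populations were unequal in several of these genes. Wild-type replicate 3 was the highest of the 3 for otub-2, mgrn-1, helq-1, cdc-42, attf-4 and wdr-4, which makes 6 of 10 genes against 40.3% of all genes. Replicate 1 was the lowest for 7 of 10 genes, against 38.3% of all genes. The wild-type SD exceeded the pooled SD within mutants for 5 of 10 genes, and for 45.8% of all genes. It was 1.76 for K10D11.5, 0.64 for helq-1 and 0.57 for both otub-2 and mgrn-1, and 0.30 or less for the other 6. Set against replicate 3 alone, the 40 differences of 10 genes in 4 mutants were above 0, as the separation of the groups fixes, with the smallest at 0.50 for attf-4 in rde-4. Against replicate 3 the differences of helq-1 were 0.95 to 1.18, those of mgrn-1 1.34 to 1.67 and those of otub-2 1.32 to 2.04, all smaller than against the mean of the 3 populations.

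**Figure D3:**
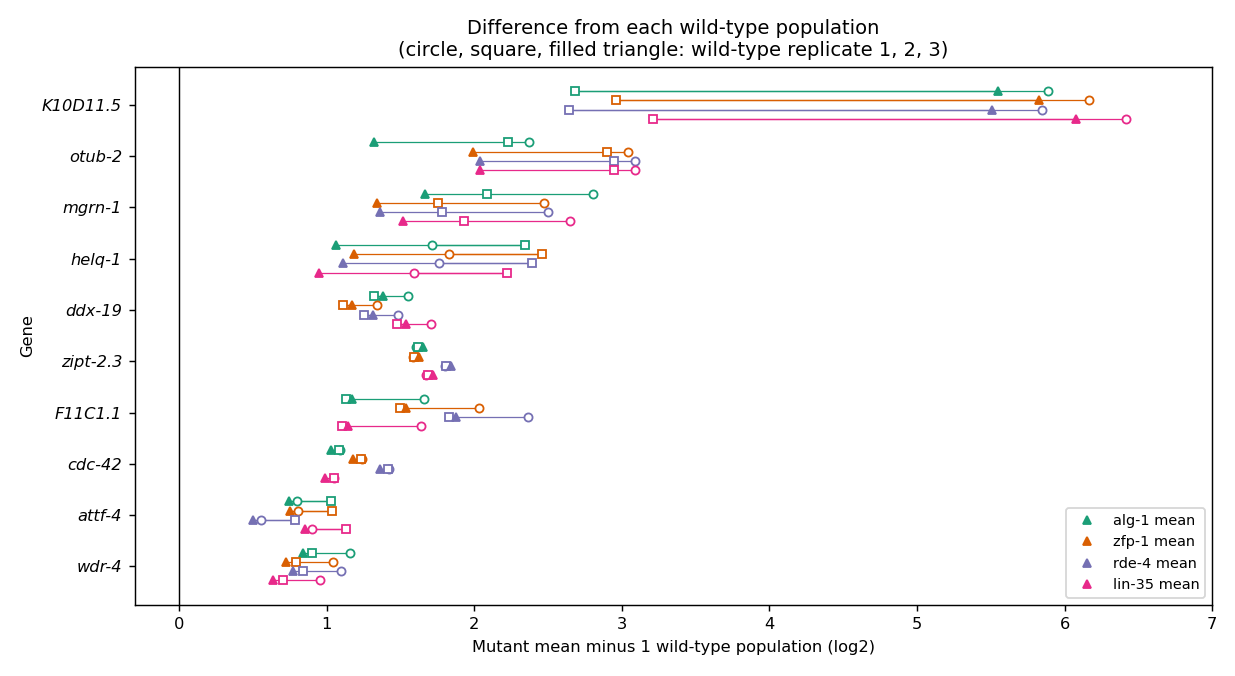
The mean of each mutant minus the value of a single wild-type population (x axis, log2) is plotted for each gene (y axis), with a colour per mutant and a marker per wild-type population. All values lie to the right of 0, those of K10D11.5 against replicates 1 and 3 and of zipt-2.3 against all 3 rest on wild-type values below 5, and those for otub-2, mgrn-1 and helq-1 are smallest against wild-type replicate 3.

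The choice did not compare the mutants with each other, and these differences were tested over all 6 pairs. It did require every mutant to stand above wild type, judged against the spread within groups. That can favour genes with alike mutant means and small spread, so the calls and ranges below are not independent of the choice. None of the 60 combinations of gene and pair passed (limma, adjusted p under 0.05 over 8653 genes), and 2 had an unadjusted p under 0.05, both for F11C1.1. The share of all genes called was 0.705% for alg-1 against zfp-1, 1.02% for alg-1 against rde-4, 6.95% for alg-1 against lin-35, 1.36% for zfp-1 against rde-4, 6.28% for zfp-1 against lin-35 and 11.4% for rde-4 against lin-35. With 10 genes per pair, the 0 calls are not read as a difference from these shares. The range between the highest and lowest mutant mean had a median of 0.36 over the 10 genes, from 0.20 for wdr-4 to 0.73 for F11C1.1, and a median of 0.61 over all genes.

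F11C1.1 was 0.73 ± 0.25 (SE) higher in rde-4 than in lin-35, with a 95% interval of 0.17 to 1.28 (limma adjusted p = 0.093). This difference passed when array medians were subtracted, at 1.03 (limma adjusted p = 0.023), and without lin-35 replicate 2, at 1.07 (limma adjusted p = 0.038), and its adjusted p reached 0.63 over the other alternatives. Its alg-1 mean minus its rde-4 mean was -0.70, with an interval of -1.20 to -0.20 (limma adjusted p = 0.18). For otub-2, whose alg-1 replicate 2 was low, the alg-1 mean minus the rde-4 mean was -0.72 (interval -1.71 to 0.27, limma adjusted p = 0.47). Of the 60 intervals, 42 lay wholly within 1 log2 unit of 0. The intervals were widest for K10D11.5, reaching -2.17 and 1.92, and for otub-2, reaching -1.83 and 1.17, so differences of up to these sizes between mutants could not be detected or set aside. For wdr-4 and attf-4 they stayed within 0.65 and 0.74 of 0. The order of the mutants was not fixed across genes: the highest mean was that of rde-4 for 4 genes, lin-35 for 3, alg-1 for 2 and zfp-1 for 1, and no neighbours in these orders passed the test.

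**Figure D4:**
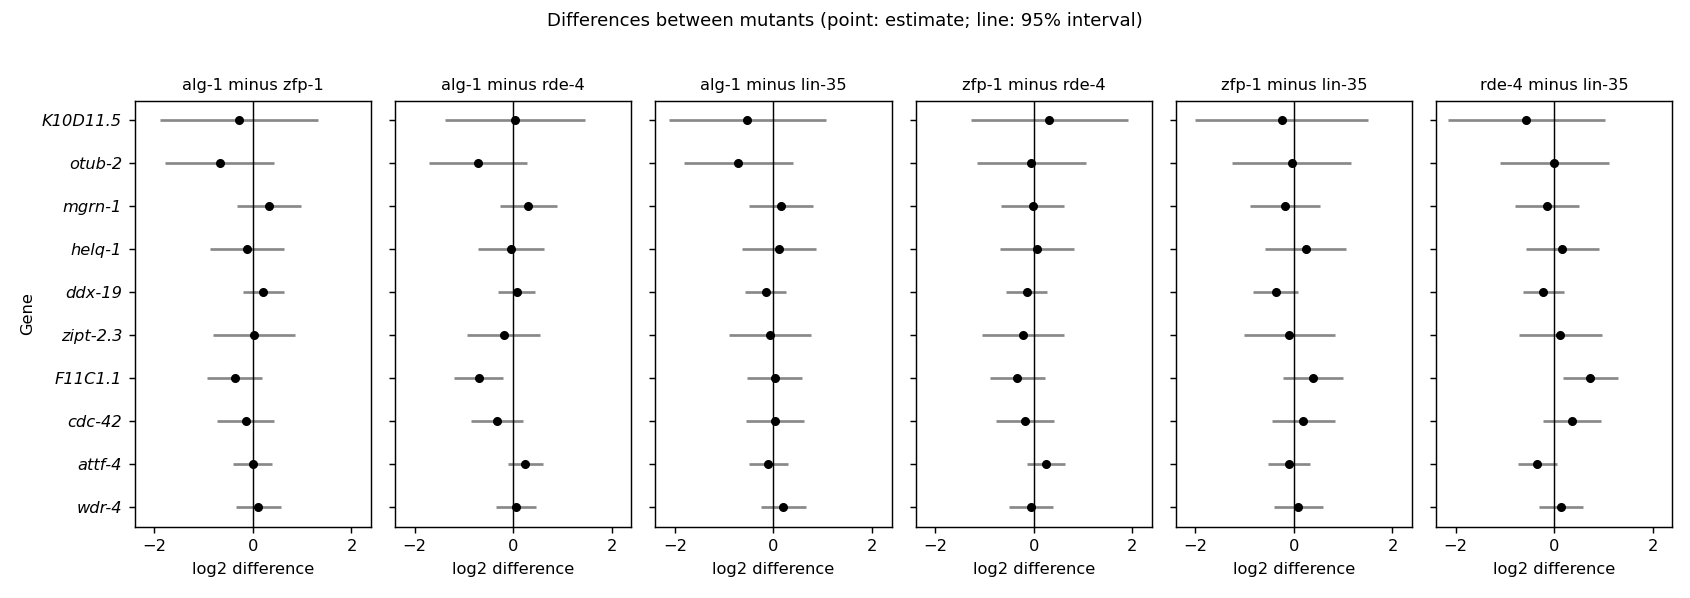
The difference between mutant means (x axis, log2) is plotted for each gene (y axis) in 6 panels, 1 per pair of mutants, with lines for 95% intervals from limma. All intervals cross 0 except those of F11C1.1 in alg-1 minus rde-4 and in rde-4 minus lin-35.

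The nearest gene tested on either side of each of the 10 on its chromosome was compared with wild type in the same fit. Genes that were not tested were passed over, so a neighbour here need not be the adjacent gene. Over all genes, 1.07%, 1.27%, 6.38% and 5.19% were called higher in alg-1, zfp-1, rde-4 and lin-35, and 2.06%, 2.92%, 4.73% and 1.47% lower. Of 20 neighbours, 1, 2, 3 and 1 had an unadjusted p under 0.05 in these mutants (limma). After adjustment 19 of the 20 passed in no mutant, and 1 was called higher in lin-35. The share of all genes that passed in no mutant was not computed. With 20 genes these counts are not read as a difference from the shares over all genes. That gene was Y54G9A.5, beside zipt-2.3, which rose in lin-35 at least 48.9-fold (limma adjusted p = 2.6e-11). It had a mean of 2.71 ± 0.08 (SD, 3 samples) in wild type and 10.61 ± 0.21 in lin-35, and its differences in the other mutants lay between -0.03 and 0.03. It thus passed the filter on dim genes only through the 2 lin-35 samples, in which it was high. Beside K10D11.5, dod-17 had differences of 1.54 ± 0.45 (SE) in alg-1, 1.47 ± 0.51 in zfp-1, 1.06 ± 0.45 in rde-4 and 0.77 ± 0.51 in lin-35 (limma adjusted p = 0.097, 0.12, 0.15 and 0.44), and mbk-2 on the other side had differences between -0.28 and 0.46. The 5 genes outside the list with the profile most like the mean profile of the 10 over 13 samples were Y45F10D.7 (Pearson r = 0.93), W03F9.1 (0.91), ddb-1 (0.91), K03B8.6 (0.91) and cnep-1 (0.91). Their profiles share samples and the low wild type with the list, whose own members correlated with that mean at 0.89 to 0.96. Of these, ddb-1, an adaptor of a cullin ubiquitin ligase, ranged from 7.64 to 8.39 in wild type and from 8.60 to 9.34 in the mutants.

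Relatives and partners of the 10 genes were counted from lists, with 1.07%, 1.27%, 6.38% and 5.19% of all genes called higher in alg-1, zfp-1, rde-4 and lin-35 as the background. Of 12 polarity genes acting with CDC-42, par-6, whose product binds CDC-42, rose in rde-4 by 0.93 ± 0.26 (SE, limma adjusted p = 0.041), ect-2 rose in lin-35 by 1.70 ± 0.45 (limma adjusted p = 0.046), and none passed in alg-1 or zfp-1 (1 and 2 at an unadjusted p under 0.05). Of 9 actin branching genes 0 passed in any mutant by limma, with 0, 1, 2 and 0 at an unadjusted p under 0.05 in alg-1, zfp-1, rde-4 and lin-35. The calls for par-6 and ect-2 each ended in 14 of 21 alternatives, with an adjusted p of up to 0.68 and 0.30. That for par-6 ended without wild-type replicate 1 or 2, at which the list's count in rde-4 went to 0, and that for ect-2 without wild-type replicate 1.

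Among enzymes that handle ubiquitin, no namesake of otub-2 passed the test in any mutant. otub-1 had differences of -0.30 to 0.15 and otub-4 of -0.11 to 0.40. otub-3 was above wild type in each mutant, by 0.15 to 1.08 (lowest limma adjusted p = 0.056). Of 17 other deubiquitylases, 1 rose in alg-1, 0 in zfp-1, 5 in rde-4 and 2 in lin-35, and none fell. In zfp-1, 7 had an unadjusted p under 0.05 (limma). The median difference was 0.15, 0.39, 0.29 and 0.40 in alg-1, zfp-1, rde-4 and lin-35. ubh-4, a ubiquitin hydrolase gene of the proteasome, rose by 1.13 ± 0.25 (SE) in alg-1 and 0.94 ± 0.25 in rde-4 (limma adjusted p = 0.035 in each). atx-3, the worm ataxin-3, rose in lin-35 by 1.84 ± 0.32 (limma adjusted p = 0.0036), and usp-14, another proteasome-bound deubiquitylase gene, rose by 0.80 in rde-4 and 1.01 in lin-35 (limma adjusted p = 0.049 and 0.04). Of 24 other single-protein ubiquitin ligases, 1 rose and 1 fell in alg-1, 0 passed in zfp-1 (7 at an unadjusted p under 0.05), 1 rose and 1 fell in rde-4 and 2 rose in lin-35. rnf-121, a RING finger gene, rose by 1.46 ± 0.32 in alg-1 and 2.00 ± 0.32 in rde-4 (limma adjusted p = 0.035 and 0.0054). nhl-3 fell by 0.93 in alg-1 and 0.82 in rde-4 (limma adjusted p = 0.031 and 0.027). rnf-1 was at least 8.7-fold higher in lin-35 than in wild type (limma adjusted p = 1.8e-08), with a wild-type mean of 2.35 ± 0.51 (SD) and a lin-35 mean of 8.12 ± 0.18. It passed the filter on dim genes only through the 2 lin-35 samples, in which it was high. Without wild-type replicate 1 or 2 the deubiquitylase count in rde-4 went from 5 to 0 and that in alg-1 from 1 to 0, and the ubh-4 calls also ended without wild-type replicate 3. Those of usp-14, nhl-3 and rnf-121 in alg-1 ended without wild-type replicate 1 or 2. Over the 21 alternatives the usp-14 call ended in 16 in rde-4 and in 15 in lin-35. The ubh-4 call ended in 14 in alg-1 and in 12 in rde-4. That of rnf-121 in alg-1 ended in 11, and that of nhl-3 in 9 in alg-1 and in 7 in rde-4. The rnf-121 call in rde-4 ended only with wild-type replicate 3 as the single control. The atx-3 call ended without lin-35 replicate 2, with adjusted p up to 0.13 over the alternatives. rnf-1 stayed past the threshold in all 21 alternatives.

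Of 18 other DEAD-box and DEAH-box helicases, 3 rose in rde-4 and 1 in lin-35, with 0 in alg-1 and zfp-1 (3 and 6 at an unadjusted p under 0.05, limma), and the median differences were 0.35 in alg-1, 0.48 in zfp-1, 0.68 in rde-4 and 0.32 in lin-35. hel-1, which loads export factors on mRNA, rose in rde-4 by 1.05 ± 0.21 (SE, limma adjusted p = 0.014), a call that ended without wild-type replicate 1. ddx-27 rose in rde-4 by 1.16 (limma adjusted p = 0.026) and ddx-46 in lin-35 by 0.84 (limma adjusted p = 0.045). Both calls ended without wild-type replicate 1 or 2, and over the 21 alternatives they ended in 7 and 15. The rde-4 count was 0 without wild-type replicate 1, 1 without wild-type replicate 2 and 8 without wild-type replicate 3. Among 14 other mRNA export genes hel-1 rose in rde-4 and aly-3 rose in lin-35 (0.84, limma adjusted p = 0.046). The aly-3 call ended in 15 of 21 alternatives, also without wild-type replicate 1 or 2. In alg-1 and zfp-1 0 passed (2 and 1 at an unadjusted p under 0.05, limma). Of 25 other recombination and fork repair genes, 7 rose in lin-35, 2 in rde-4 and 0 in alg-1 and zfp-1 (2 at an unadjusted p under 0.05 in each, limma), with median differences of 0.60, 0.00, -0.02 and -0.05 in lin-35, rde-4, alg-1 and zfp-1. They included rad-51, the strand exchange recombinase gene, which rose in lin-35 by 2.06 ± 0.29 (limma adjusted p = 0.00064), and dog-1, a helicase gene that guards G-rich tracts, at least 3.77-fold higher in lin-35 (limma adjusted p = 0.0017). dog-1 was also higher in rde-4, at least 1.46-fold (limma adjusted p = 0.038). That call ended in 11 of 21 alternatives, also without wild-type replicate 1 or 2. brc-2, the worm BRCA2, rose in rde-4 by 2.18 ± 0.24 (limma adjusted p = 0.00048). The calls of rad-51, dog-1 and brc-2 in lin-35, lin-35 and rde-4 stayed past the threshold in all 21 alternatives, and the lin-35 count stood between 5 and 8.

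**Figure D5:**
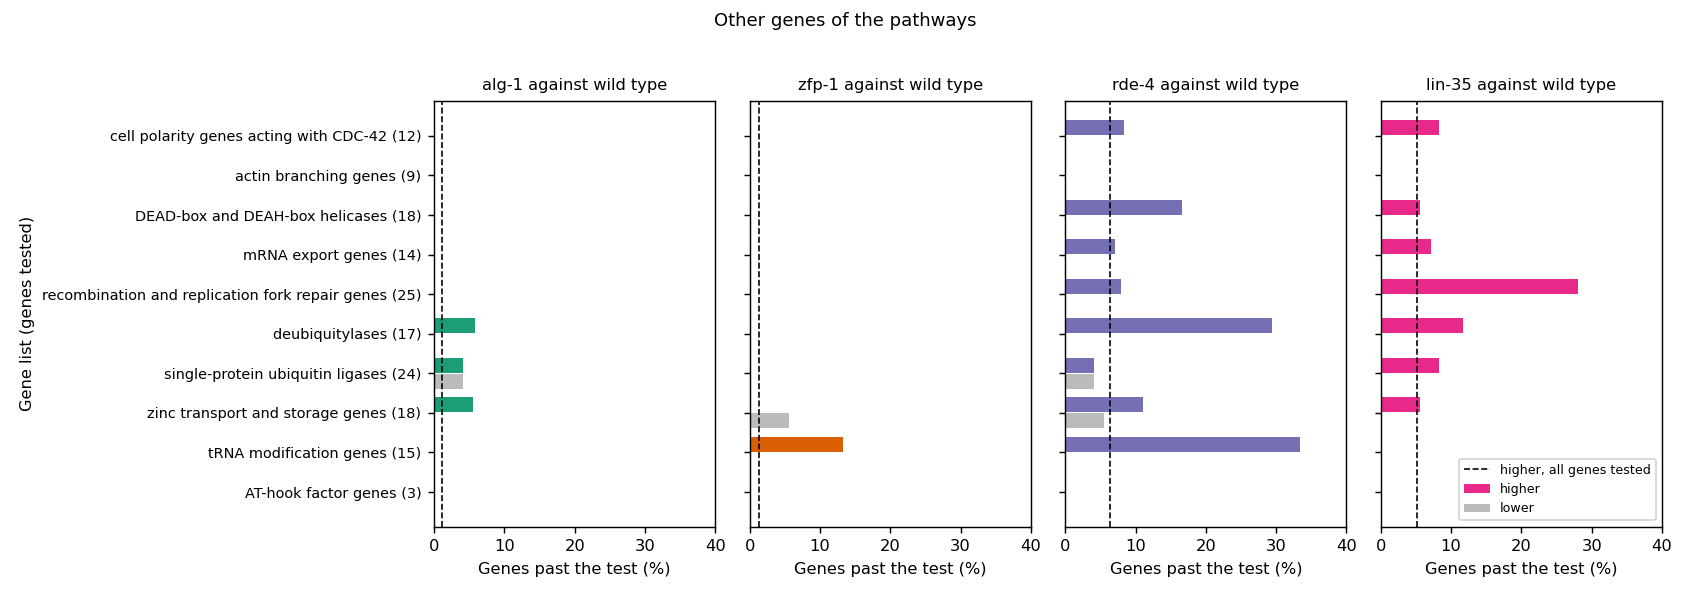
The percentage of tested genes called higher (coloured bars) or lower (grey bars) than wild type (x axis) is given for 10 gene lists without the 10 genes (y axis, number tested in parentheses), in 1 panel per mutant. The dashed line marks the share of all genes called higher, which is 1.07% in alg-1, 1.27% in zfp-1, 6.38% in rde-4 and 5.19% in lin-35.

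Of 18 other zinc transport and storage genes, 1 rose in alg-1, 2 in rde-4 and 1 in lin-35, while 1 fell in zfp-1 and 1 in rde-4, the latter mtl-2, a metallothionein gene named after its value was seen. zipt-3, another ZIP gene, rose by 0.93 ± 0.19 (SE) in alg-1, 0.80 ± 0.19 in rde-4 and 0.86 ± 0.21 in lin-35 (limma adjusted p = 0.024, 0.023 and 0.028), and had a difference of 0.48 in zfp-1 (limma adjusted p = 0.2). zipt-2.2 fell by 1.25 in zfp-1 (limma adjusted p = 0.024), and zipt-1 rose by 1.01 in rde-4 (limma adjusted p = 0.025). zipt-2.1 and zipt-2.4 had differences of 0.14 to 0.42 and 0.18 to 0.55. The calls of zipt-1, zipt-2.2 and zipt-3 ended without wild-type replicate 1 or 2, or without either of 2 samples of the mutant concerned, with adjusted p up to 0.50. Of 15 other genes on the tRNA modification list, 2 rose in zfp-1 and 5 in rde-4. In alg-1 and lin-35 0 passed, with 0 and 2 at an unadjusted p under 0.05 (limma). The 2 in zfp-1, nsun-1 and nsun-5, were also among the 5 in rde-4. Their products are known as methyltransferases of rRNA, so the list is wider than its name. nsun-1, an RNA cytosine methyltransferase gene, rose by 2.60 ± 0.64 in zfp-1 and 2.41 ± 0.57 in rde-4 (limma adjusted p = 0.045 and 0.025), with a wild-type level of 7.41 ± 1.18 (SD). nsun-5 rose by 1.02 and 0.92 in the same mutants (limma adjusted p = 0.044 and 0.027), and alkb-1 rose by 0.67 in rde-4 (limma adjusted p = 0.035). Both counts went to 0 without wild-type replicate 1 or 2. Over the 21 alternatives the nsun-1 call ended in 15 in zfp-1 and in 8 in rde-4. The nsun-5 call ended in 12 in zfp-1 and in 7 in rde-4, and the alkb-1 call ended in 11. Of 3 other AT-hook genes 0 passed (limma; 1, 1, 1 and 2 at an unadjusted p under 0.05 in alg-1, zfp-1, rde-4 and lin-35), and attf-6 came nearest, with differences of 0.82 to 1.14 (lowest limma adjusted p = 0.059). Without wild-type replicate 3, 1 AT-hook gene passed in alg-1, zfp-1 and rde-4.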

How the data were processed

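Total RNA, 5 microgram per sample, was biotin-labelled and hybridised to Affymetrix expression arrays. The deposited values are log2 values per probe set, made by the authors with GCRMA, per the submitters' processing notes; no source used here gives its version or settings, or a genome build. Values ran from 1.42 to 17.0. Of 22625 probe sets, 77 controls, 887 with several genes and 895 not listed in the platform annotation were left out. Names and neighbours came from the RefSeq table of WBcel235, and no coordinates are printed. The brightest probe set stood for a gene. On these arrays the suffix of the probe sets of helq-1, ddx-19, cdc-42 and attf-4 marks probes shared between transcripts; signal from other transcripts was not tested.

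A single limma model (version 3.58.1, R 4.3.3) held all 5 groups, with 8 residual and 3.49 prior degrees of freedom. Tests were two-sided, p-values were adjusted per contrast (Benjamini-Hochberg), and 0.05 was the threshold. P-values measure the spread between these populations. SE is limma's. The pipeline was tested on simulated data. Where a group lay wholly below 5, a fold was taken against 5. Named beside the 10 genes were up to 3 genes per list, those past the threshold in the most mutants. Also named were the nearest gene tested on each side of each gene, the 5 most alike profiles and relatives of the 10 genes in the lists. The genes and the 11 pathway and 7 marker lists, of which 9 of 254 names were not matched, were chosen with earlier results of these data known; 1 pathway list is not reported here. Replicate numbers were not used to pair the samples in the main fit. Same-numbered samples of different groups had correlations of -0.27 to 0.38, with 14 of 23 above 0.1. Whether samples of the same number share an effect was not tested, and a fit with the number as a block is among the alternatives.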

Additional observations from a re-analysis of the deposited data

How the results depend on the processing

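Over 21 alternatives all 40 differences of the 10 genes from wild type were above 0, which the choice of the genes favours, and 20 of 840 values moved by more than that gene's residual SD. Passing in all 4 mutants is what the genes were chosen for, so the following counts describe that choice and test nothing. Against 10 of 10 genes, it held for 5 without a filter on dim genes, 0 with only the groups compared in the fit, 3 with alg-1 replicates 1 and 3 merged, 1 when wild-type replicate 3 was the single control (its spread taken from the other groups), and 0 to 9 when a sample was left out, with 0 without zfp-1 replicate 1 and 1 without zfp-1 replicate 2. Genes higher in all 4 mutants numbered 12 at first, 0 with only the groups compared, 3 with the alg-1 pair merged, 2 with the single control, 27 with the replicate number as a block, and 0 to 104 with a sample left out. Calls of the 10 genes between mutants numbered 1 with array medians subtracted and 0 to 1 with a sample left out; with the replicate block they remained 0.

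Counts of genes called over the whole table also moved. Without a filter they were 137, 167 and 376 in alg-1, zfp-1 and rde-4 against wild type, 47 for alg-1 against rde-4 and 76 for zfp-1 against rde-4. With only the groups compared they were 128, 101, 195 and 310 in alg-1, zfp-1, rde-4 and lin-35 against wild type, 34 for alg-1 against rde-4, 29 for zfp-1 against rde-4 and 487 for rde-4 against lin-35. With the replicate block 856 were called in zfp-1, and 5 of 13 samples correlated best with a sample of their own number. With alg-1 replicates 1 and 3 as 1 sample the alg-1 counts were 67 against wild type, 37 against zfp-1, 48 against rde-4 and 395 against lin-35. Against wild-type replicate 3 alone, 16, 21, 33 and 295 were called in alg-1, zfp-1, rde-4 and lin-35, and array medians subtracted gave 1653 for rde-4 against lin-35. The main counts were 271, 363, 961 and 576 against wild type in that order, and 61, 88, 601, 118, 543 and 984 between mutants in the order of the report. With a sample left out, counts against wild type ran from 67 to 496, 49 to 854, 230 to 1452 and 379 to 781, and between mutants from 18 to 89, 46 to 103, 339 to 724, 27 to 144, 270 to 632 and 465 to 1128. The cause was not tested, beyond the fewer samples or larger number of genes that some alternatives have by construction. Values below 5 have little order, which limits K10D11.5, helq-1 and zipt-2.3.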
